A study of Mus musculus with 12 samples.

Results

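The genes described here encode the enzymes of glycolysis and of the pentose phosphate pathway, with the main glucose transporters and the kinases that steer both routes. The list holds 34 genes. A gene counted as measured when the array had at least 1 probe set annotated with its symbol and no other, and the probe set with the largest standard deviation (SD) over the 12 arrays stood for the gene. By this rule 29 of the 34 genes were measured, by 68 probe sets, out of 18193 genes measured in the same way. Of the 29 genes, 11 had a single probe set and 18 had several. Gpi1, Gapdh, Eno1, Pfkfb1 and G6pdx had no probe set of a single symbol and were not analysed here. For Gapdh, 3 probe sets were annotated with several symbols. The first committed enzyme of the pentose phosphate pathway, the main enolase and the phosphoglucose isomerase are therefore missing from what follows.

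Glycolysis splits glucose into pyruvate and yields ATP without oxygen, and the pentose phosphate pathway branches off at glucose 6-phosphate to make NADPH and ribose for nucleotides. Several steps are run by isozymes, enzymes of the same reaction that are encoded by different genes and differ in their regulation and their tissue. Red blood cells, which lose their mitochondria, live on glycolysis and carry their own pyruvate kinase from the Pklr gene, whereas neutrophils feed the oxidative burst with NADPH. Which isozyme genes the progenitors of these lineages transcribe is the question that the 4 sorted populations address here.

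Marrow of female C57BL/6 mice aged 4 to 6 weeks supplied every population, and all cells were lineage-negative, CD117+ and Sca-1-. Granulocyte-monocyte progenitors (GMP) were CD34+, CD16/32+ and CD27+, and megakaryocyte-erythrocyte progenitors (MEP) were CD34-, CD16/32- and CD27-. Common myeloid progenitors (CMP), CD34+ and CD16/32-, were collected as a CD27+ and a CD27- fraction. Total RNA of 80000 cells per population was hybridised to Affymetrix Mouse Genome arrays, 3 per population. With 3 arrays a population, precision is limited. The labels name the arrays biological replicates but do not tie them to animals or pools, and the p-values therefore measure only the spread between these arrays, which may be technical.

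The values are log2 signals in which each probe set was centred on the median of its 12 arrays. A value of 2 therefore means a signal 2 log2 units above the median array of that probe set, the levels of different genes cannot be compared, and a flat probe set says nothing about whether its gene is expressed. The normalisation pulls weak signals toward a background, which leaves the size of a fold uncertain where a population lies near that background. Differences were tested with limma, and a gene passed when its p-value, adjusted by the Benjamini-Hochberg method over all 45037 probe sets, was under 0.05. No array gives an absolute scale, so fewer cells of a type and less RNA per cell cannot be told apart in any of these differences.

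Markers of the myeloid and the erythroid lineage moved with the same split as the genes below. All 10 granulocyte-monocyte markers, among them Mpo, Cebpa and Csf1r, were higher in CD27+ than in CD27- CMP and higher in GMP than in MEP. Their mean level per array ran from 2.64 to 3.41 in CD27+ CMP, from 3.70 to 4.15 in GMP, from -3.22 to -2.67 in CD27- CMP and from -4.15 to -2.70 in MEP. Of 9 measured erythroid markers 8, among them Klf1, Gata1 and Epor, were lower in both comparisons, with mean levels from -4.20 to -2.78 in CD27+ CMP, from -4.38 to -2.40 in GMP, from 2.43 to 2.45 in CD27- CMP and from 2.70 to 2.90 in MEP. Hba-a1 and Alas2, genes of globin and of haem synthesis in red cells, were flat. Slc4a1, measured on the same list, passed in neither comparison. It averaged 0.39 in CD27- CMP and 0.42 in MEP, against -0.08 in CD27+ CMP and -0.04 in GMP, and its CD27- CMP arrays spread from -0.08 to 0.83. The mean of the 9 measured proliferation genes stayed between -0.17 and 0.14 on every array, but 2 of them, Ccna2 and Plk1, were lower in CD27+ than in CD27- CMP, at -0.53 and -0.79, and in GMP than in MEP, at -0.84 and -0.69. The means of the B cell and the T and NK cell lists stayed between -0.04 and 0.11. Of 6 macrophage markers 3 passed as higher in GMP than in MEP, namely Adgre1 by 2.96 log2, Vcam1 by 5.10 and Cd68. Cd68 averaged 3.16 in GMP and -2.72 in MEP, and also 3.68 in CD27+ CMP against -2.81 in CD27- CMP. Mrc1, C1qa and Marco stayed near 0 in every population. The mean of 8 immediate early genes, which react to handling, ran from 0.63 to 1.40 in the CD27+ CMP and GMP arrays and from -0.57 to -0.02 in the CD27- CMP and MEP arrays. Of these 5 were higher and 1 lower between the CMP fractions, the lower one being Egr1 at -3.48, and Fosb was near 0 in every population. The mean of 6 measured megakaryocyte markers ran from -0.48 to -0.11 in CD27+ CMP, from -1.90 to -0.67 in GMP, from 0.63 to 2.35 in CD27- CMP and from 0.19 to 1.07 in MEP, and 2 of the 6 passed as lower in each comparison. The 7 stem and multipotent cell markers averaged from 2.81 to 3.18 in CD27+ CMP, from 0.63 to 1.08 in GMP, from -0.96 to -0.68 in CD27- CMP and from -1.43 to -1.01 in MEP, and the 6 markers of mast cells, basophils and eosinophils from 1.54 to 1.90, from 3.16 to 3.63, from -1.70 to -1.62 and from -2.03 to -1.76. Of the 7 stem markers 6 passed as higher and 1 as lower between the CMP fractions, and 5 and 1 between GMP and MEP. Slamf1 was the lower gene both times, which the mean hides. Cd34 is on the stem list and Fcgr3, a gene of CD16, on the granulocyte-monocyte list. Both proteins were gates that separate GMP from MEP, so the sort itself fixed part of that contrast for these lists. CD27- CMP were gated as CD34+ as well, yet their Cd34 transcript averaged -3.22. It averaged 4.10 in CD27+ CMP, 3.03 in GMP and -4.91 in MEP. The cause of this was not tested. The part of any of the gene lists above in the differences below was not tested.

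Between the 2 CMP fractions, isozyme genes of the same step were called in opposite directions at 3 steps, those of the glucose transporters, the phosphofructokinases and the pyruvate kinases. In CD27+ CMP, transcripts of the glucose transporter gene Slc2a1, the hexokinases Hk2 and Hk3, the platelet-type phosphofructokinase Pfkp, Pfkfb3, Pgk1, Pgam1, the pyruvate kinase Pkm and the lactate dehydrogenase Ldhb were higher than in CD27- CMP. Transcripts of Slc2a3, the muscle-type phosphofructokinase Pfkm, the muscle-type enolase Eno3, the red cell and liver pyruvate kinase Pklr and the transaldolase Taldo1 were lower. These were 9 genes higher and 5 lower of 29, where 11.3% of all measured genes were called higher and 9.31% lower. The median difference of the 29 genes was 0.06 log2, against -0.03 over all genes, and the median size of a difference, without its sign, was 0.90 against 0.16. Many of all genes are flat on these arrays, which lowers that second value.

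Between GMP and MEP 10 genes were higher in GMP and 5 lower, where 11.0% of all genes were called higher and 10.1% lower. The median difference was 0.15 log2 against -0.04 over all genes. Hk1, the hexokinase of red cells and brain, and Pgd, the phosphogluconate dehydrogenase, passed here in addition, and Taldo1 did not, with a difference of -0.05 (SE 0.14, adjusted p = 0.81).

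**Figure D1:**
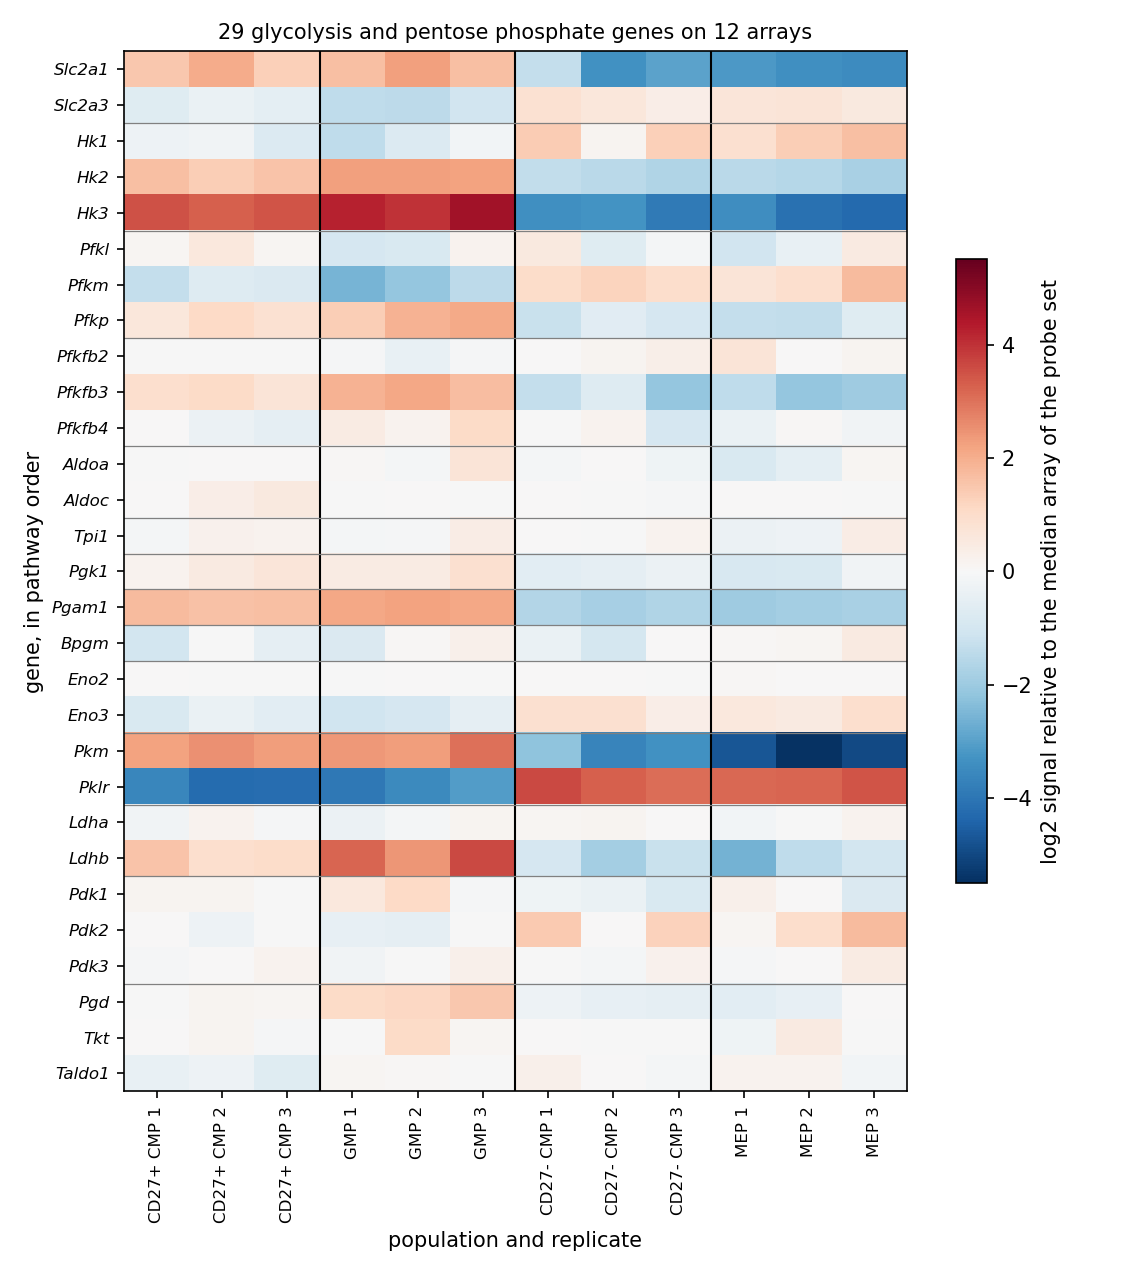
Centred log2 signal of the 29 measured genes (rows, in pathway order, with grey lines between steps) on the 12 arrays (columns, grouped by population); red is above and blue below the median array of the same probe set. Hk3, Pkm and Pklr show the strongest colours, and the sign turns between the 6 arrays on the left, sorted with CD27, and the 6 on the right, sorted without.

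Glucose enters the cell through transporters, of which 2 were on the list. Slc2a1 encodes GLUT1, the transporter of basal glucose uptake, and Slc2a3 encodes the high-affinity transporter GLUT3. Slc2a1 read 1.47, 2.05 and 1.33 in CD27+ CMP, 1.66, 2.27 and 1.64 in GMP, -1.33, -3.33 and -2.94 in CD27- CMP and -3.17, -3.37 and -3.48 in MEP. All 6 arrays sorted with CD27 lay above all 6 sorted without, and the first CD27- CMP array stood nearest to the gap. The difference between the CMP fractions was 4.15 log2 (SE 0.46, adjusted p = 2.1e-04), a 17.8-fold higher signal in CD27+ CMP, and that between GMP and MEP was 5.20 (SE 0.46, adjusted p = 4.2e-05). Both other probe sets of Slc2a1 gave the same direction, at 3.64 and 3.76 between the CMP fractions.

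Slc2a3 ran the other way and moved less. It read -0.66, -0.35 and -0.52 in CD27+ CMP, -1.40, -1.42 and -1.04 in GMP, 0.84, 0.62 and 0.35 in CD27- CMP and 0.65, 0.72 and 0.53 in MEP. GMP was the lowest population and its arrays did not overlap with those of any other. The differences were -1.12 between the CMP fractions (SE 0.14, adjusted p = 5.7e-04) and -1.92 between GMP and MEP (SE 0.14, adjusted p = 1.4e-05). Of its 4 probe sets these differences were seen in 2, whose names mark them as open to cross-hybridisation, while the group means of the others lay between -0.02 and 0.04. The direction for Slc2a3 thus rests on probe sets that may also read another transcript.

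The RefSeq table (build GRCm38.p6) held promoter windows for 28 of the 29 genes, and the 250 bases before each start were searched on both strands. The window of Slc2a1, the transporter gene with the larger change, is shown because it carries the core of the hypoxia response element, ACGTG or GCGTG, which is marked in capitals. It lies at chr4:119108495-119108744 on the plus strand.
Slc2a1: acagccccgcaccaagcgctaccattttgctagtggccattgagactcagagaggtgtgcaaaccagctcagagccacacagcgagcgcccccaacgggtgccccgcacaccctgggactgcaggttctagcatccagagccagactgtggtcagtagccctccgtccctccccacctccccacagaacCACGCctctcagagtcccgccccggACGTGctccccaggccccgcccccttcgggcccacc
It holds 2 matches, the nearer of them 31 bases before the start. Such a match is common and is no evidence of binding.

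The hexokinases trap glucose in the cell as glucose 6-phosphate. Hk3, a hexokinase known from white blood cells, had the largest difference of the 3. It read 3.50, 3.30 and 3.46 in CD27+ CMP, 4.23, 3.97 and 4.64 in GMP, -3.39, -3.30 and -3.89 in CD27- CMP and -3.42, -4.11 and -4.29 in MEP. Every array sorted with CD27 lay above every array sorted without. The difference was 6.95 log2 between the CMP fractions (SE 0.25, adjusted p = 1.7e-07) and 8.22 between GMP and MEP (SE 0.25, adjusted p = 5.3e-08).

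Hk2, the inducible hexokinase that binds mitochondria, followed Hk3 with a smaller difference and a narrow spread. It read 1.66, 1.37 and 1.58 in CD27+ CMP, 2.24, 2.26 and 2.20 in GMP, -1.37, -1.47 and -1.67 in CD27- CMP and -1.50, -1.56 and -1.77 in MEP. The 3 GMP arrays stood above all CD27+ CMP arrays, while CD27- CMP and MEP overlapped. Hk2 was higher by 3.04 log2 in CD27+ than in CD27- CMP (SE 0.10, adjusted p = 9.8e-08) and by 3.85 in GMP than in MEP (SE 0.10, adjusted p = 2.1e-08).

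Hk1 was lower where Hk2 and Hk3 were higher. It read -0.27, -0.21 and -0.75 in CD27+ CMP, -1.40, -0.74 and -0.16 in GMP, 1.41, 0.16 and 1.33 in CD27- CMP and 0.86, 1.34 and 1.67 in MEP. The arrays of the 2 sides did not overlap, but the second CD27- CMP array came close to CD27+ CMP. The difference between GMP and MEP was -2.05 (SE 0.41, adjusted p = 0.0076). Between the CMP fractions it was -1.38 and did not pass with this probe set (SE 0.41, adjusted p = 0.057), whereas the other probe set gave -1.49 and passed (SE 0.17, adjusted p = 3.0e-04). Without the second CD27- CMP array the first probe set gave -1.78 (adjusted p = 0.015).

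Phosphofructokinase, assembled from liver (Pfkl), muscle (Pfkm) and platelet (Pfkp) type subunits, commits sugar to glycolysis. Pfkm read -1.30, -0.69 and -0.81 in CD27+ CMP, -2.57, -2.11 and -1.46 in GMP, 1.03, 1.22 and 0.96 in CD27- CMP and 0.69, 0.92 and 1.74 in MEP. Pfkp read 0.62, 1.10 and 0.83 in CD27+ CMP, 1.37, 1.92 and 2.07 in GMP, -1.24, -0.62 and -0.93 in CD27- CMP and -1.31, -1.36 and -0.67 in MEP. For both subunits GMP lay farthest from MEP and CD27+ CMP in between, without overlap between GMP and CD27+ CMP. The difference between GMP and CD27+ CMP passed for neither subunit. Pfkm averaged -0.93 ± 0.32 (SD, n = 3) in CD27+ CMP and 1.07 ± 0.13 in CD27- CMP and passed as lower in the former (SE of the difference 0.33, limma adjusted p = 0.0027), and the difference of GMP from MEP was -3.16 (SE 0.33, adjusted p = 1.3e-04). Pfkp was higher by 1.78 (SE 0.26, adjusted p = 0.0011) and by 2.90 (SE 0.26, adjusted p = 4.1e-05). A second Pfkp probe set gave 1.46 and 2.32, and the remaining one was flat. Pfkl passed in no comparison, with a difference of 0.33 between the CMP fractions and a 95% interval from -0.72 to 1.39.

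The bifunctional PFKFB enzymes set the level of the fructose bisphosphate that activates phosphofructokinase, and Pfkfb3 encodes the form with the strongest kinase activity. Pfkfb3 read 0.91, 1.05 and 0.73 in CD27+ CMP, 1.93, 2.13 and 1.71 in GMP, -1.29, -0.73 and -2.13 in CD27- CMP and -1.38, -2.13 and -1.97 in MEP. It was higher by 2.28 log2 in CD27+ than in CD27- CMP (SE 0.33, adjusted p = 0.0011) and by 3.75 in GMP than in MEP (SE 0.33, adjusted p = 3.9e-05). Its other probe set was flat, with group means from -0.04 to 0.02. Pfkfb2 and Pfkfb4 passed in no comparison. Their differences between GMP and MEP were -0.48 (adjusted p = 0.11) and 0.74 (adjusted p = 0.19).

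The aldolases, which split the sugar, and triose phosphate isomerase (Tpi1) follow. Aldoa, Aldoc and Tpi1 passed in no comparison, and Tpi1 differed by 0.05 between the CMP fractions with an interval from -0.42 to 0.51. Pgk1, the phosphoglycerate kinase of the first ATP-yielding step, did pass. It read 0.20, 0.48 and 0.65 in CD27+ CMP, 0.46, 0.47 and 0.90 in GMP, -0.57, -0.48 and -0.31 in CD27- CMP and -0.88, -0.82 and -0.20 in MEP. The 2 sides did not overlap, yet the difference of 0.90 between the CMP fractions (SE 0.20, adjusted p = 0.015) lost its call without the third CD27+ CMP array (0.80, adjusted p = 0.063), without the first CD27- CMP array (0.84, adjusted p = 0.056) or without the second (0.89, adjusted p = 0.05). Both other Pgk1 probe sets passed, at 0.85 and 0.82, but their names mark them as open to cross-hybridisation. GMP exceeded MEP by 1.24 (SE 0.20, adjusted p = 0.0023).

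Pgam1, the phosphoglycerate mutase that hands its product to enolase, had the smallest spread between arrays relative to its difference. It read 1.74, 1.62 and 1.67 in CD27+ CMP, 2.12, 2.23 and 2.12 in GMP, -1.62, -1.83 and -1.67 in CD27- CMP and -1.95, -1.87 and -1.77 in MEP. GMP stood above CD27+ CMP on every array, and the other 2 populations overlapped. Pgam1 was higher by 3.38 log2 in CD27+ than in CD27- CMP (SE 0.07, adjusted p = 4.5e-09) and by 4.02 in GMP than in MEP (SE 0.07, adjusted p = 1.9e-09). Bpgm, which makes the bisphosphoglycerate that lowers the oxygen affinity of haemoglobin, did not pass with its main probe set, at -0.06 and -0.39. One of its other probe sets gave -0.45 between GMP and MEP (SE 0.13, adjusted p = 0.041).

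Among the enolases, Eno3 read -0.83, -0.37 and -0.59 in CD27+ CMP, -1.08, -0.93 and -0.48 in GMP, 0.86, 0.86 and 0.37 in CD27- CMP and 0.58, 0.51 and 0.92 in MEP. It was lower on all arrays sorted with CD27, by -1.30 between the CMP fractions (SE 0.20, adjusted p = 0.0019) and by -1.50 between GMP and MEP (SE 0.20, adjusted p = 7.0e-04). Eno2, the neuronal enolase, was flat, with group means between -0.01 and 0.04.

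Pyruvate kinase closes glycolysis with its second ATP-yielding step. Pkm encodes the forms of most tissues, whose splice variants were not examined here, and Pklr encodes the liver form and, from a start further upstream, the red cell form. Pkm read 2.23, 2.51 and 2.31 in CD27+ CMP, 2.39, 2.30 and 3.02 in GMP, -2.23, -3.63 and -3.35 in CD27- CMP and -4.71, -5.42 and -4.96 in MEP. Pklr read -3.58, -4.25 and -4.17 in CD27+ CMP, -3.94, -3.49 and -3.09 in GMP, 3.62, 3.28 and 3.09 in CD27- CMP and 3.16, 3.22 and 3.44 in MEP. The 2 genes were mirror images, except that Pkm averaged -5.03 ± 0.36 (SD) in MEP and -3.07 ± 0.74 in CD27- CMP while Pklr overlapped between them.

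Pkm was higher by 5.42 log2 in CD27+ than in CD27- CMP (SE 0.36, adjusted p = 6.8e-06) and by 7.60 in GMP than in MEP (SE 0.36, adjusted p = 6.5e-07). For Pklr the differences were -7.33 (SE 0.25, adjusted p = 1.1e-07) and -6.78 (SE 0.25, adjusted p = 1.5e-07). Its other 2 probe sets gave -6.09 and -3.12 between the CMP fractions, so the direction was shared by all 3 while the size was not.

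The promoter windows of both pyruvate kinase genes are shown since they moved in opposite directions, with 2 motifs in capitals on either strand. These are the GATA motif, spelled AGATAA or else TGATAA, and the motif of Krüppel-like factors, spelled CACCC. GATA1 and KLF1, the factors known to bind such motifs in red cell precursors, are encoded by genes of the erythroid list above.
Pklr, upstream start, chr3:89135892-89136141, plus strand: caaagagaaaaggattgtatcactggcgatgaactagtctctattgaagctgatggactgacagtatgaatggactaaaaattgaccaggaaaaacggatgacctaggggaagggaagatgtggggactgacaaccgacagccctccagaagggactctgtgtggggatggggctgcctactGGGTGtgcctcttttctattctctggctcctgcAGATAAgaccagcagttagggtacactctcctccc
Pklr, downstream start, chr3:89136373-89136622, plus strand: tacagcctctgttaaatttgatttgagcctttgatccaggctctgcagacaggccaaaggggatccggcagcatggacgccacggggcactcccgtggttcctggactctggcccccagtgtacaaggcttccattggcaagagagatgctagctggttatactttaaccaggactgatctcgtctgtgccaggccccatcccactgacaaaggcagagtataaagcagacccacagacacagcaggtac
Pkm, first of its windows, chr9:59656326-59656575, plus strand: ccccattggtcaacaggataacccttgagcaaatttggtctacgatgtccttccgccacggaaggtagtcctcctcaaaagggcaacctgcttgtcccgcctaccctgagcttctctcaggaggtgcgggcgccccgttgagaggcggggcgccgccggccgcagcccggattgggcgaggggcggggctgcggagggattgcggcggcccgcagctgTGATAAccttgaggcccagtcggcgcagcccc
Pkm, second of its windows, chr9:59656977-59657226, plus strand: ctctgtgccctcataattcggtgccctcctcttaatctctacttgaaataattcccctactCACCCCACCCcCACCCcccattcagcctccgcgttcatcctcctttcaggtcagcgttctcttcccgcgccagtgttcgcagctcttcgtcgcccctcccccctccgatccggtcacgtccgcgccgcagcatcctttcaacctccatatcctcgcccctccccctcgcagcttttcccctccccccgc
The upstream Pklr window holds 1 GATA match, with 29 bases between it and the start, and 1 CACCC match on the other strand. The downstream window holds neither. The first Pkm window holds 1 GATA match, 26 bases before its start, and no CACCC match. The second Pkm window holds no GATA match and 3 CACCC matches. Whether either factor binds there was not tested. Of all 32851 windows 16.6% held a GATA match and 52.0% a CACCC match.

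Pyruvate is turned into lactate or enters the mitochondria. Ldha and Ldhb encode the subunits of lactate dehydrogenase. Ldhb read 1.57, 0.93 and 0.99 in CD27+ CMP, 3.19, 2.44 and 3.65 in GMP, -0.93, -1.88 and -1.22 in CD27- CMP and -2.59, -1.38 and -1.02 in MEP. It was highest in GMP, with CD27+ CMP next and the other 2 populations overlapping. Ldhb was higher by 2.51 log2 in CD27+ than in CD27- CMP (SE 0.46, adjusted p = 0.0048) and by 4.76 in GMP than in MEP (SE 0.46, adjusted p = 7.3e-05). The name of this Ldhb probe set marks it as open to cross-hybridisation. Ldha did not pass, and the interval of its only probe set between the CMP fractions ran from -0.41 to 0.18. A flat probe set may fail to read its gene, so this interval does not exclude a change of the Ldha transcript.

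The pyruvate dehydrogenase kinases, which keep pyruvate out of the mitochondria, were less clear. Pdk3 was level, at 0.00 and -0.13. Pdk1 did not pass with its main probe set, at 0.58 between the CMP fractions (adjusted p = 0.38), but 2 of its other probe sets gave 0.89 (adjusted p = 0.032) and 0.87 (adjusted p = 1.4e-04) there. Pdk2 averaged -0.11 in CD27+ and 0.89 in CD27- CMP (adjusted p = 0.23) and differed by -1.25 between GMP and MEP (adjusted p = 0.12), and its CD27- CMP arrays spread from 0.00 to 1.42.

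In the pentose phosphate pathway, Pgd encodes the enzyme of the second NADPH-yielding step. It read -0.03, 0.14 and 0.09 in CD27+ CMP, 1.04, 1.15 and 1.49 in GMP, -0.28, -0.45 and -0.50 in CD27- CMP and -0.60, -0.46 and 0.03 in MEP. GMP stood apart from the other 3 populations. Pgd was higher in GMP than in MEP by 1.57 log2 (SE 0.17, adjusted p = 1.5e-04), while the difference of 0.48 between the CMP fractions did not pass (SE 0.17, adjusted p = 0.11).

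Of the enzymes that shuffle sugars back to glycolysis, transketolase (Tkt) passed nowhere, at 0.06 and 0.32. The transaldolase gene Taldo1 read -0.41, -0.28 and -0.68 in CD27+ CMP, 0.09, 0.08 and -0.04 in GMP, 0.30, 0.04 and -0.12 in CD27- CMP and 0.20, 0.21 and -0.14 in MEP. It was lowest in CD27+ CMP, by -0.53 against CD27- CMP (SE 0.14, adjusted p = 0.035) and by -0.55 against MEP (adjusted p = 0.027), with -0.50 against GMP not passing (adjusted p = 0.13). Against CD27- CMP it passed in 6 of the 12 fits that left out 1 array, with differences from -0.62 to -0.41. It was lost without the first or second GMP array, the first or the third CD27+ CMP array, or the first or second CD27- CMP array. Against MEP it passed in 8 of 12, and was lost without the first or second MEP array or the first or the third CD27+ CMP array, with adjusted p up to 0.098. With only the 2 populations in the fit neither call held (adjusted p = 0.12 and 0.079).

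Isozyme use was then read within each array as the difference of 2 isozymes in log2, which removes anything that shifts a whole array. Because each probe set is centred, only the change of such a ratio has a meaning. Of 22 fixed pairs 17 were measured. The 6 arrays sorted with CD27 were compared with the 6 sorted without by an exact permutation test (two-sided, smallest possible p = 0.0022), adjusted over the 17 pairs. In all 14 pairs passed at an adjusted p under 0.05, and 13 of the 17 had no overlap between the sides. Of all pairs that can be formed from the 18193 measured genes, 30.6% had no overlap either. Pairs that share a gene are not independent, and each side joins 2 populations. The test permuted single arrays across all populations, so it counted the arrays of a population as independent units for the CD27 split. Its p-values describe the separation of these arrays and do not measure replication of the CD27 split over populations.

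The ratio of Pkm to Pklr changed most, by 13.57 log2. It ran from 5.79 to 6.76 over the 6 arrays sorted with CD27 and from -8.64 to -5.86 over those sorted without (exact p = 0.0022, adjusted p = 0.0028). Hk1 to Hk3 changed by -9.30, Slc2a1 to Slc2a3 by 6.19, Hk1 to Hk2 by -5.16 and Pfkm to Pfkp by -4.92, each without overlap and at the same exact p. Hk2 to Hk3 changed by -4.14, as Hk3 differed by more than Hk2. Ldha to Ldhb changed by -3.75 and Eno2 to Eno3 by 1.37, and in both pairs the first gene passed no test, so that the ratio mostly reads the second. Pfkl to Pfkm changed by 2.65, Pfkl to Pfkp by -2.27 and Pfkfb2 to Pfkfb3 by -3.35. Pfkfb3 to Pfkfb4 changed by 2.65, Pdk1 to Pdk2 by 1.77 and Pdk2 to Pdk3 by -1.06. These pairs passed too. Each holds a gene that passed no limma comparison with its main probe set, namely Pfkl, Pfkfb2, Pfkfb4, Pdk1 or Pdk3.

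Pairs that did not pass were Pfkfb2 to Pfkfb4 at -0.69 (exact p = 0.076, adjusted p = 0.083), Aldoa to Aldoc at 0.22 (exact p = 0.38, adjusted p = 0.38) and Pdk1 to Pdk3 at 0.71 (exact p = 0.078, adjusted p = 0.083). By the same test Pdk1 to Pdk3 passed with the mean of each gene's probe sets (0.66, adjusted p = 0.022). With probe sets of a single transcript type it passed at 0.91 (adjusted p = 0.0098), and Aldoa to Aldoc at 0.43 (adjusted p = 0.021). Within the CMP gate alone, 3 arrays against 3, no exact test can go below p = 0.1. There the mean ratio of Pkm to Pklr was 6.35 in CD27+ and -6.40 in CD27- CMP, and that of Hk1 to Hk3 was -3.83 and 4.49.

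**Figure D2:**
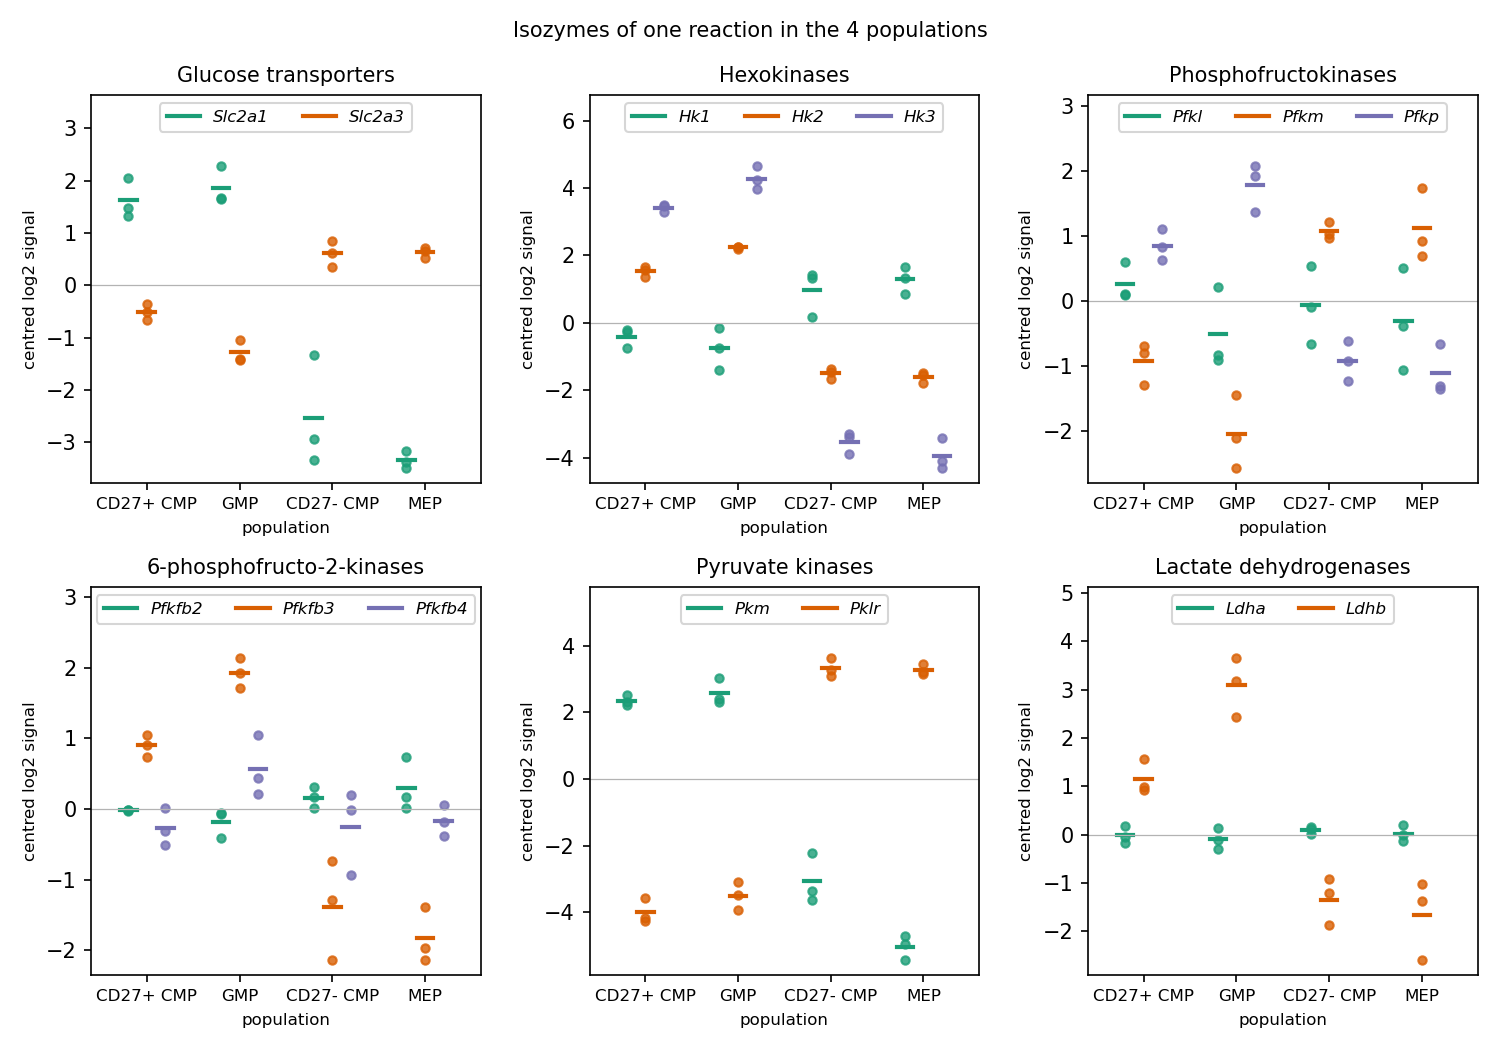
Centred log2 signal (vertical axis) of isozyme genes in the 4 populations, with 1 point per array and a bar at the mean of 3 arrays; heights can be compared between populations for a gene but not between genes. Slc2a1 and Slc2a3 change in opposite directions between the populations sorted with and without CD27. So do Hk3 and Hk1, Pfkp and Pfkm, and Pkm and Pklr, whereas Ldha stays near 0. That the genes of a pair cross near 0 follows from the centring and does not rank them.

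The comparison of the CMP fractions and that of GMP with MEP share no array, although they share the estimate of spread. Of the 14 genes called between the CMP fractions and the 15 called between GMP and MEP, 13 were called in both, all with the same sign, which is 92.9% of the first and 86.7% of the second. Over all genes the 2879 called in both were 76.7% and 75.2%. The size was larger between GMP and MEP for 12 of the 13, or 92.3%, against 56.0% of all genes called in both with the same sign. The exception was Pklr, with -7.33 between the CMP fractions and -6.78 between GMP and MEP, and it rests on the main probe set, since both other Pklr probe sets were larger between GMP and MEP, at -6.09 against -6.44 and at -3.12 against -3.78. For the main probe set the difference of the differences was -0.55 and did not pass (adjusted p = 0.99). The difference of the differences itself was tested gene by gene and is given further on.

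**Figure D3:**
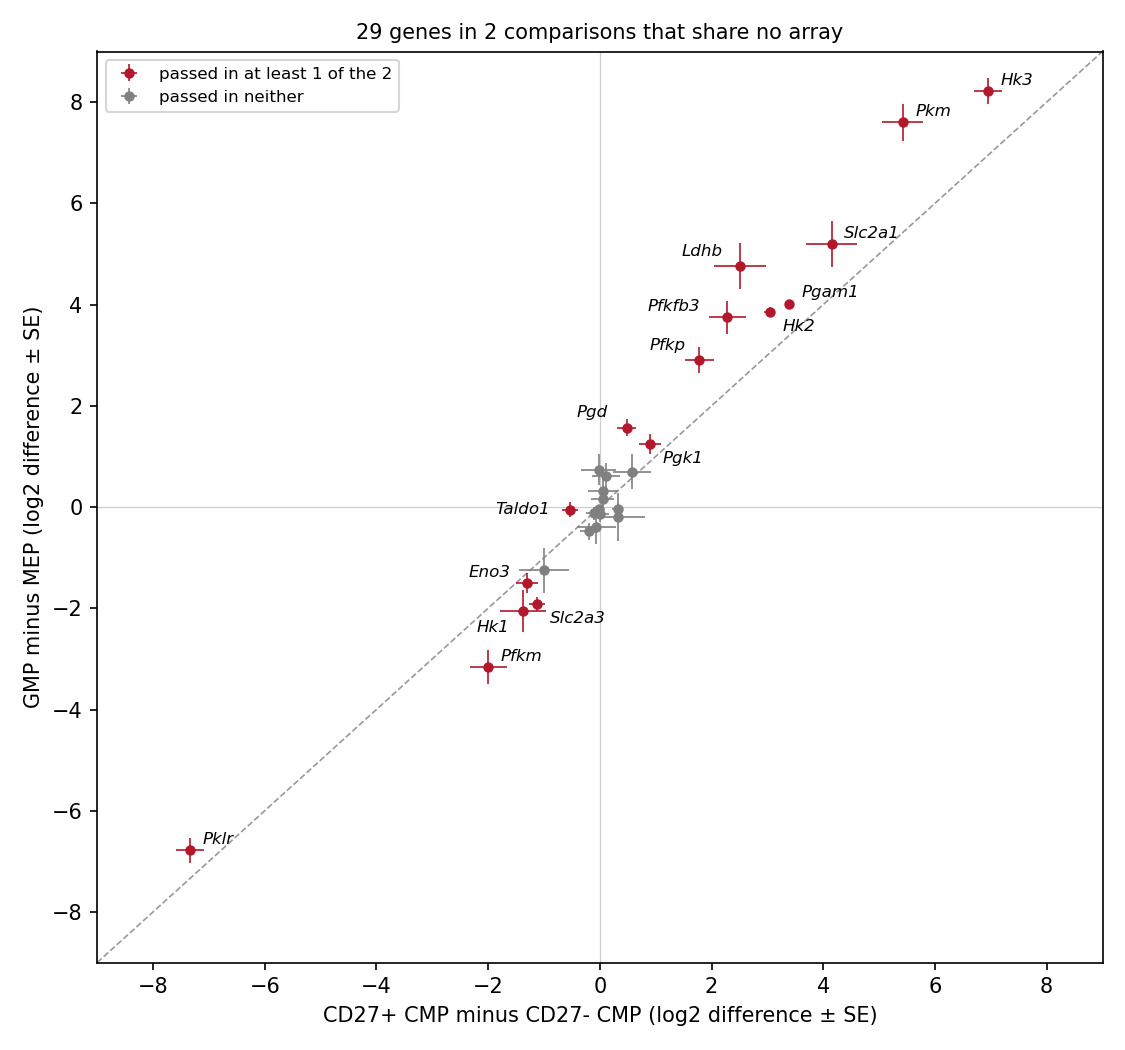
Log2 difference of each of the 29 genes between the CMP fractions (horizontal) and between GMP and MEP (vertical), with bars of 1 standard error and a dashed line of equal size; red marks genes that passed in at least 1 of the 2. Most red points lie farther from 0 on the vertical axis, as for Pkm at 5.42 and 7.60, and Pklr, drawn with its main probe set, lies on the other side of the line at -7.33 and -6.78.

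CD27+ CMP and GMP differed by less. Here 1 gene was higher in CD27+ CMP and 3 were lower, where 2.27% of all genes were called higher and 2.25% lower. The median difference was -0.22 log2, against -0.01 over all genes. Hk2 was lower by -0.70 (SE 0.10, adjusted p = 0.0055), Pgam1 by -0.48 (SE 0.07, adjusted p = 0.0045) and Pgd by -1.16 (SE 0.17, adjusted p = 0.0057). All 3 other Pgd probe sets passed too, from -1.10 to -1.05, but their names mark them as open to cross-hybridisation.

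Slc2a3 was higher in CD27+ CMP by 0.77 (SE 0.14, adjusted p = 0.022). This call passed in 8 of the 12 fits without 1 array and was lost without the first or second GMP array or the second or the third CD27+ CMP array, with adjusted p up to 0.093. It was also lost after quantile normalisation (0.93, adjusted p = 0.05), with only the 2 populations in the fit (adjusted p = 0.1) and with a flat probe set of a single transcript type (-0.02). Ldhb had the largest difference, -1.93, and did not pass with its main probe set (SE 0.46, adjusted p = 0.066). Its other 3 probe sets passed, at -2.04 (adjusted p = 1.8e-04), -2.02 (adjusted p = 0.011) and -2.08 (adjusted p = 0.015). The names of the main Ldhb probe set and of the one at -2.02 mark them as open to cross-hybridisation. Hk3 at -0.86, Pfkp at -0.93, Pfkfb3 at -1.03 and Pfkm at 1.12 did not pass. Slc2a1 at -0.24 and Pkm at -0.22 did not pass either. With only probe sets that varied by 0.5 log2 or more in the fit, Pgam1 lost its call (adjusted p = 0.057). Pfkm, Pfkp and Ldhb gained a call there (adjusted p = 0.049, 0.042 and 0.012).

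**Figure D4:**
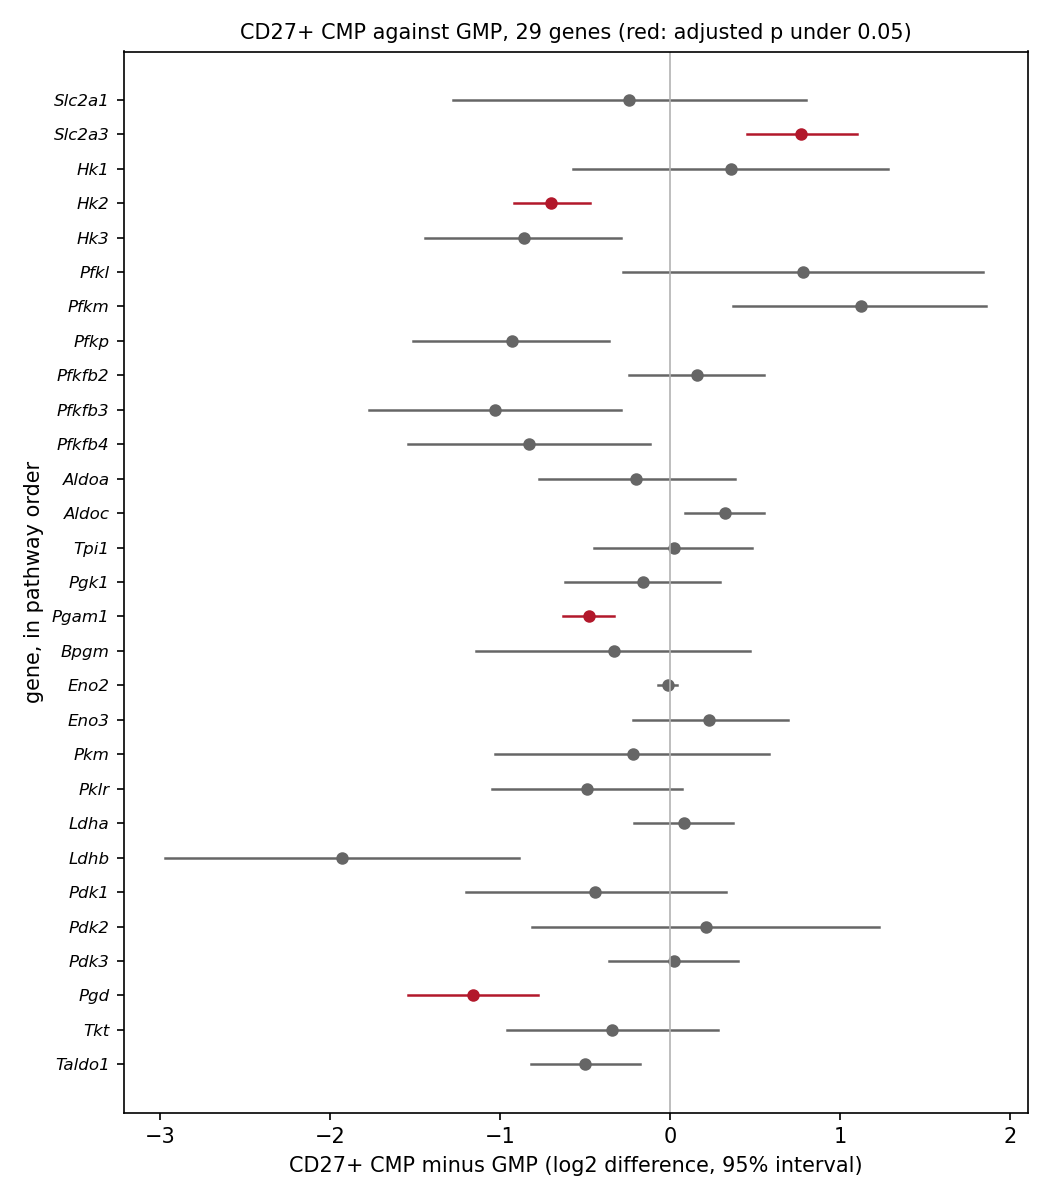
Log2 difference between CD27+ CMP and GMP for each of the 29 genes in pathway order, with its 95% interval; values below 0 are higher in GMP, and red marks an adjusted p under 0.05. Hk2, Pgam1 and Pgd lie below 0 and Slc2a3 above it, and Ldhb lies farthest from 0 with a wide interval from -2.97 to -0.89.

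Between CD27- CMP and MEP no gene passed with limma. The counts were 0 higher and 0 lower, where 0.0165% of all genes were called higher and 0.0165% lower, and 2 of the 29 genes had an unadjusted p under 0.05. Those were Pkm and Pgam1. Pkm was higher in CD27- CMP by 1.96, with an interval from 1.15 to 2.76 (SE 0.36, adjusted p = 0.17). Pgam1 differed by 0.16 (adjusted p = 0.79). The intervals leave room for differences of some size in genes that vary between arrays, such as Slc2a1, at 0.81 with an interval from -0.23 to 1.85, and narrow room in others, such as Hk2, at 0.11 with an interval from -0.12 to 0.34.

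In the remaining pairs the populations differ in CD27 and in CD34 or CD16/32. CD27+ CMP against MEP gave 9 genes higher and 6 lower, where 11.3% of all genes were called higher and 11.5% lower. CD27- CMP against GMP gave 5 higher and 10 lower, where the shares were 9.10% and 11.4%. These share arrays with the comparisons above and add no independent evidence. Hk1 was called in both, at -1.70 against MEP (adjusted p = 0.02) and 1.73 against GMP (adjusted p = 0.02), and these calls held in 9 and 8 of 12 fits without 1 array. The first was lost without the second or the third MEP array or the third CD27+ CMP array, and the second without the first or second GMP array or the first or the third CD27- CMP array.

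With the populations joined by CD27, the mean of CD27+ CMP and GMP minus that of CD27- CMP and MEP, 10 genes were higher and 6 lower, where 14.5% of all genes were called higher and 15.1% lower. Pdk2 passed only in this comparison, at -1.12 (SE 0.32, adjusted p = 0.034), and kept its call in 3 of 12 fits without 1 array (adjusted p from 0.0085 to 0.077). It was lost without any single CD27+ CMP array, the first or second GMP array, the first or the third CD27- CMP array, or the second or the third MEP array.

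The test of whether the difference between the CMP fractions equals that between GMP and MEP passed for 2 genes, both in the direction of a larger difference between GMP and MEP, where 1.66% of all genes were called in either direction. For Hk2 the difference of the differences was -0.81 (SE 0.14, adjusted p = 0.034), and for Pgam1 it was -0.64 (SE 0.09, adjusted p = 0.015). Without 1 array Hk2 passed in 2 of 12 fits, those without the first CD27+ CMP or the third CD27- CMP array, with adjusted p up to 0.09. Pgam1 passed in 11 of 12, all but the fit without the second MEP array (adjusted p = 0.051). Pgd did not pass with its main probe set, at -1.09 (SE 0.24, adjusted p = 0.088), and passed with its other 3, at -1.19, -1.18 and -1.15 (adjusted p = 0.026, 0.014 and 0.011). The names of those 3 mark them as open to cross-hybridisation. Ldhb gave -2.25 (adjusted p = 0.26) and passed with 1 of its other probe sets, at -2.24 (SE 0.22, adjusted p = 0.0019). For Pkm the difference of -2.18 did not pass (SE 0.50, adjusted p = 0.11). It passed with only probe sets that varied by 0.5 log2 or more in the fit (adjusted p = 0.025), where Hk2 and Pgam1 did not.

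Other genes of these routes were read as lists, to be set beside the shares of all genes above. Of 18 measured enzymes of glycolysis and gluconeogenesis outside the main list, 2 were higher and 3 lower between the CMP fractions, and 4 were higher and 4 lower between GMP and MEP, with medians of -0.02 and -0.03 against -0.03 and -0.04 over all genes. Fbp1, the fructose bisphosphatase of gluconeogenesis, read 2.24, 2.60 and 2.36 in CD27+ CMP, 2.67, 2.20 and 2.60 in GMP, -3.13, -2.20 and -2.99 in CD27- CMP and -2.82, -2.95 and -3.17 in MEP. It was higher by 5.17 between the CMP fractions (adjusted p = 7.7e-07) and by 5.47 between GMP and MEP (adjusted p = 4.3e-07), and its arrays did not overlap between the populations sorted with and without CD27. The enzyme runs against phosphofructokinase. Minpp1, an inositol polyphosphate phosphatase that also acts on bisphosphoglycerate, was lower, at -3.82 and -3.10 (adjusted p = 9.2e-05 and 3.2e-04). The phosphoglucomutases split, with Pgm1 higher by 2.36 and 3.21 and Pgm2 lower, at -1.47 and -1.46, all passing.

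Of 10 other pentose phosphate genes 2 were higher and 1 lower between the CMP fractions, and 1 was higher and 2 lower between GMP and MEP. The medians were -0.04 and 0.07. Tigar, a phosphatase that lowers the same fructose bisphosphate which Pfkfb3 makes, was higher by 3.52 (adjusted p = 4.0e-05) and 4.24 (adjusted p = 9.7e-06). Rpia, which makes ribose phosphate, was lower, at -1.17 and -0.52, and was also lower in CD27+ CMP than in GMP, at -0.79 (adjusted p = 9.7e-04). Prps2, of the next step toward nucleotides, was higher by 1.19 between the CMP fractions, and Prps1 was lower between GMP and MEP, at -0.52.

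Among 14 other glucose and monocarboxylate transporters 3 were higher and 3 lower between the CMP fractions, and 3 higher and 1 lower between GMP and MEP, with medians of -0.02 and -0.04. Slc16a7, a monocarboxylate carrier with high affinity for pyruvate, was higher by 3.98 and 4.07 (adjusted p = 1.5e-07 and 1.1e-07). Slc2a6 was higher by 3.65 and 2.92 and Slc2a9, a urate transporter, by 2.05 and 0.85, whereas Slc2a8 was lower, at -2.67 and -2.51. Of 13 genes of pyruvate entry into mitochondria 0 were higher and 3 lower between the CMP fractions, and 1 was higher and 2 lower between GMP and MEP, with medians of -0.12 and -0.09. Pcx, the pyruvate carboxylase, was lower at -2.15 and -1.54 (adjusted p = 0.0043 and 0.024), and Pdhx, a structural subunit of pyruvate dehydrogenase, at -1.02 and -0.90. Dlat was lower at -1.31 between the CMP fractions, and Pdp1, whose product reverses the kinases encoded by the Pdk genes, was higher by 1.32 in GMP than in MEP.

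Of 16 regulators of glycolytic genes 6 were higher and 2 lower between the CMP fractions, and 5 higher and 4 lower between GMP and MEP, with medians of 0.00 and -0.03. The largest difference was that of Egln3, a prolyl hydroxylase that marks HIF proteins for decay and is itself a HIF target. Egln3 read 3.59, 3.89 and 3.55 in CD27+ CMP, 3.67, 3.89 and 3.93 in GMP, -3.92, -3.93 and -3.60 in CD27- CMP and -3.55, -3.79 and -4.06 in MEP. The differences were 7.49 and 7.63 (adjusted p = 5.3e-09 and 4.9e-09). Hif1a was higher by 1.27 and 1.72, Sik1 by 1.94 and 1.18, and Prkaa1, a catalytic subunit of the energy sensor AMPK, was lower at -1.47 and -1.61.

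Of 11 measured hypoxia targets outside glycolysis 3 were higher and 2 lower between the CMP fractions, and 2 were higher and 2 lower between GMP and MEP, with medians of -0.04 and -0.01. Car9, the carbonic anhydrase often used as a hypoxia marker, was higher by 2.47 and 3.19 (adjusted p = 4.3e-05 and 6.8e-06) and Ndrg1 by 2.97 between the CMP fractions. The prolyl hydroxylases of collagen went opposite ways, with P4ha1 higher by 1.45 and 1.97 and P4ha2 lower, at -1.64 and -2.82.

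The promoter windows were finally compared as a whole, as a description with no test. The hypoxia core ACGTG or GCGTG stood in 72.7% of the 44 windows of the measured genes and in 38.6% of all 32851 windows of the table. It stood in 84.6% of the 13 windows of genes higher with CD27, in 54.5% of the 11 windows of genes lower with CD27 and in 75.0% of the 20 windows of genes not called. The GATA motif stood in 18.2% of the measured genes' windows and in 16.6% of all, with 7.69% of the windows of genes higher with CD27 and 36.4% of those of genes lower with CD27. The 4 windows behind that last share belong to Pklr and, for 3 overlapping or alternative starts, Pfkm. The E-box CACGTG, whose letters include the hypoxia core, stood in 11.4% against 6.02%, and CACCC in 63.6% against 52.0%.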

How the data were processed

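The authors deposited log2 signals, processed with GCRMA (a background model followed by quantile normalisation and summary per probe set) per the submitters' processing notes, with no version given. Neither scale nor centring is stated. The values fit a log2 scale, and each of the 45037 probe sets had a median of 0 over the 12 arrays, so absolute levels were not recoverable. Array medians ran from -0.0267 to 0.0549. Probe sets were named from the platform annotation, with 34945 carrying 1 symbol, 932 several and 9160 none.

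From these values 1 limma fit (limma 3.58.1, R 4.3.3) with a mean per population gave two-sided moderated tests of 8 contrasts, with eBayes defaults and Benjamini-Hochberg adjustment over all probe sets. The script was tested on simulated data. The median SE of a difference was 0.090 log2. The genes, lists and tests were chosen with earlier results of these data known. All 12 array values are given for genes called in at least 1 pair of populations, other genes of the list by range and counts, and up to 4 called genes per pathway list. Alternatives covered scaling, array weights, replicate block, robust eBayes, filters, choice of probe set, and leaving out each array.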

Additional observations from a re-analysis of the deposited data

Results flagged for a closer look

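For 2 genes the difference between the CMP fractions was not the same as that between GMP and MEP by a test of the difference itself. For Hk2 it was smaller between the CMP fractions, with a difference of the differences of -0.81 log2 (limma, adjusted p = 0.034), and for Pgam1 likewise at -0.64 (limma, adjusted p = 0.015). After quantile normalisation neither passed, at -0.57 (adjusted p = 0.15) for Hk2 and -0.41 (adjusted p = 0.18) for Pgam1. With only probe sets that varied by 0.5 log2 or more in the fit, neither passed (limma, adjusted p = 0.078 and 0.14).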

How the results depend on the processing

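Of 5532 values of single genes and isozyme pairs under the alternatives, 5365 kept direction and side of the threshold, 62 lost a call, 103 gained one and 2 reversed. The reversed values were those of Slc2a3, at -0.02 for CD27+ CMP minus GMP and 0.00 for CD27- CMP minus GMP, when its probe set was taken from those of a single transcript type, which are flat. For CD27+ CMP minus GMP the count of 4 genes became 1 with a minimum of 1 log2 and 13 with array weights. Those weights ran from 0.00 to 52.23, so that single arrays decided the fit, and weights taken from the probe sets that varied by 0.5 log2 or more, from 0.31 to 3.64, were added after seeing the data. With the added weights 1 gene, Pkm, was called for CD27- CMP minus MEP. For the difference of the differences the count of 2 genes became 0 with a minimum of 1 log2 and 0 after quantile normalisation. It became 5 with array weights and 6 with the added weights. The range filter gave 1 and the mean of a gene's probe sets 4. The range filter keeps probe sets that varied by 0.5 log2 or more, and its 1 gene was Pkm (-2.18, adjusted p = 0.025). Hk2 and Pgam1 both lost their calls there (adjusted p = 0.078 and 0.14). The other pentose phosphate list went from 4 to 7 called genes with array weights, and the hypoxia list from 5 to 8 with the added weights. The cause of these changes was not tested.

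Leaving out 1 array at a time gave 12 to 15 genes between the CMP fractions, 15 to 16 for GMP minus MEP, 3 to 5 for CD27+ CMP minus GMP, 0 to 0 for CD27- CMP minus MEP, 13 to 15 for CD27+ CMP minus MEP, 14 to 16 for CD27- CMP minus GMP, 15 to 17 by CD27, and 0 to 3 for the difference of the differences, where the fit without the second MEP array gave 0. The replicate numbers were not taken as pairs, since only 9 of 18 same-numbered pairs correlated above 0.1 (median 0.11, from -0.32 to 0.58, and -0.06 for other numbers). With the replicate number as a block the counts were 14 between the CMP fractions, 15 for GMP minus MEP, 4 for CD27+ CMP minus GMP, 0 for CD27- CMP minus MEP, 15 for CD27+ CMP minus MEP, 16 for CD27- CMP minus GMP, 18 by CD27 and 2 for the difference of the differences. The block removed the call of Slc2a3 (adjusted p = 0.063) and added Taldo1 (adjusted p = 0.02) for CD27+ CMP minus GMP, added Pdk1 (adjusted p = 0.014) for CD27- CMP minus GMP, and added Pdk1 and Taldo1 (adjusted p = 0.016 and 0.0085) by CD27. As a hint from the data, 9 of 12 arrays were closest on average to their own number. The trend setting of eBayes was not run, since centred values carry no mean level. A fit of only the populations compared gives no value for contrasts of all 4.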
